A study of Homo sapiens with 20 samples.

Results

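The 10 long noncoding RNAs (lncRNAs, long transcripts not translated into protein) described here are all often studied in cancer. They were taken by symbol from the deposited count table: MALAT1, NEAT1, PVT1, GAS5, UCA1, H19, SNHG1, ZFAS1, KCNQ1OT1 and CRNDE, which are 10 of its 60656 rows. Each symbol has 1 row, and all 10 members passed the filter on low counts that left 24790 rows to test. The samples are 20 libraries of total RNA from the line SW1990, derived from a human pancreatic cancer, which the series describes as part of a mouse model. All 4 groups were treated and hold 5 libraries each, and the treatments carry the names of therapeutic principles in traditional Chinese medicine. The first, clearing heat and removing dampness, is called heat-clearing. The second, strengthening spleen and regulating qi-flowing, is called spleen-strengthening. The third, eliminating heat by nourishing yin, is called yin-nourishing, and the last, activating blood and removing stasis, is called blood-activating. The sources name no herb, dose, duration, mouse strain or age, and no group is labelled untreated, so every comparison is between treatments. The sources do not say whether replicates came from separate mice, tumours or cultures, so p-values measure only the spread between these samples.

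Long noncoding RNAs act in several ways. Some stay in the nucleus and organise nuclear bodies or silence neighbouring genes in cis, some are spliced hosts whose introns are cut into small nucleolar RNAs (snoRNAs, which guide chemical modification of ribosomal RNA), and some carry a microRNA. MALAT1 lies at nuclear speckles, NEAT1 is the scaffold of paraspeckles, and H19 and KCNQ1OT1 come from the imprinted region of chromosome 11. GAS5, SNHG1 and ZFAS1 are snoRNA hosts, while UCA1, PVT1 and CRNDE are studied for their high levels in tumours. In bulk RNA, fewer cells of a type and less RNA per cell cannot be told apart.

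Total counts ran from 81.7 to 135 M counts (M for mega) per library, and each member had at least 615 counts in every library, so counting error is small beside the spread between libraries. Markers of tumour epithelium, 6 of 6 with counts, summed to 1720 to 2980 CPM (counts per M counts, here without further scaling). Markers of acinar cells, the enzyme-secreting cells of the pancreas, had counts for 14 of 14 genes and summed to 1.98 to 968 CPM, with 2.12 to 70.2 in the spleen-strengthening group and 1.98 to 968 in the yin-nourishing group. Fibroblast markers summed to 16.6 to 69.0 CPM, endothelial markers to 7.35 to 22.2, leukocyte markers to 50.1 to 87.0 and red cell markers to 0 to 1.47. There were 5 libraries that stood apart by the share of their counts on RN7SK, a structural RNA of the nucleus, at 5.25 to 7.38% against 1.57 to 3.02% in the other 15. They are heat-clearing 01 and 02 and blood-activating 01, 08 and 09, and the difference described for each member is given with and without them. Leaving them out keeps 3 heat-clearing and 2 blood-activating libraries and removes none of the spleen-strengthening or yin-nourishing groups.

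No difference between treatments in any of the 10 lncRNAs passed the test. In the edgeR quasi-likelihood test of any difference among the 4 treatments, with Benjamini-Hochberg adjustment over all 24790 rows, 0 of 10 passed an adjusted p of 0.05, against 0% of all rows. The same count was 0 of 10 in each of the 6 pairs of treatments, where 0.00807% of all rows passed between heat-clearing and spleen-strengthening and 0% in each other pair. DESeq2 also called 0 of 10 in each of these 7 comparisons, where it called 5.08% of all rows among the 4 treatments. Its shares of all rows were 0.27%, 0.129% and 0.0403% for heat-clearing against spleen-strengthening, yin-nourishing and blood-activating, 0.121% for spleen-strengthening against yin-nourishing, and 7.8% and 4.26% for these last 2 groups against blood-activating. The limma voom fit with sample weights called 2, KCNQ1OT1 and CRNDE, between spleen-strengthening and blood-activating and 1, ZFAS1, between yin-nourishing and blood-activating, where it called 19.8% and 16.8% of all rows. It called 0 of 10 in the other 5 comparisons, with 8.47% of all rows among the 4 treatments, 0.0121% between heat-clearing and spleen-strengthening, 0.00403% between spleen-strengthening and yin-nourishing and 0% in the remaining 2. At an unadjusted p under 0.05 the members called were 1 of 10 among the 4 treatments, where 15.4% of all rows passed. The counts by pair were 0 for heat-clearing against spleen-strengthening (11.5% of all rows), 2 against yin-nourishing (10.3%) and 0 against blood-activating (1.86%). They were 2 for spleen-strengthening against yin-nourishing (4.72%), 1 against blood-activating (20.5%), and 1 for yin-nourishing against blood-activating (18.2%).

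The normalised levels (CPM after trimmed-mean scaling) are used from here on. MALAT1 had the highest mean, 5524 CPM over the 20 libraries, the 16th highest of the tested rows. H19 followed at 683, UCA1 at 476 and NEAT1 at 334, while the other 6 lay between 9.05 (PVT1) and 56.8 (KCNQ1OT1). Per kb of annotated exon the order of levels was MALAT1 626, H19 236, UCA1 115, ZFAS1 22.3, NEAT1 14.7, SNHG1 11.6, GAS5 7.85, CRNDE 4.16, PVT1 1.65 and KCNQ1OT1 0.62 CPM per kb. The order depends on the length used: per kb of the longest transcript GAS5 (16.8) and SNHG1 (15.8) were above NEAT1 (14.7), ZFAS1 was 46.6, CRNDE 9.35 and PVT1 5.33, and MALAT1, H19 and UCA1 were again the highest (634, 291 and 177). NEAT1 and KCNQ1OT1 are long (22767 and 91667 bases), which moves them down this scale. Together the 10 took 0.309 to 0.959% of all counts of a library, with a median of 0.741%.

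**Figure D1:**
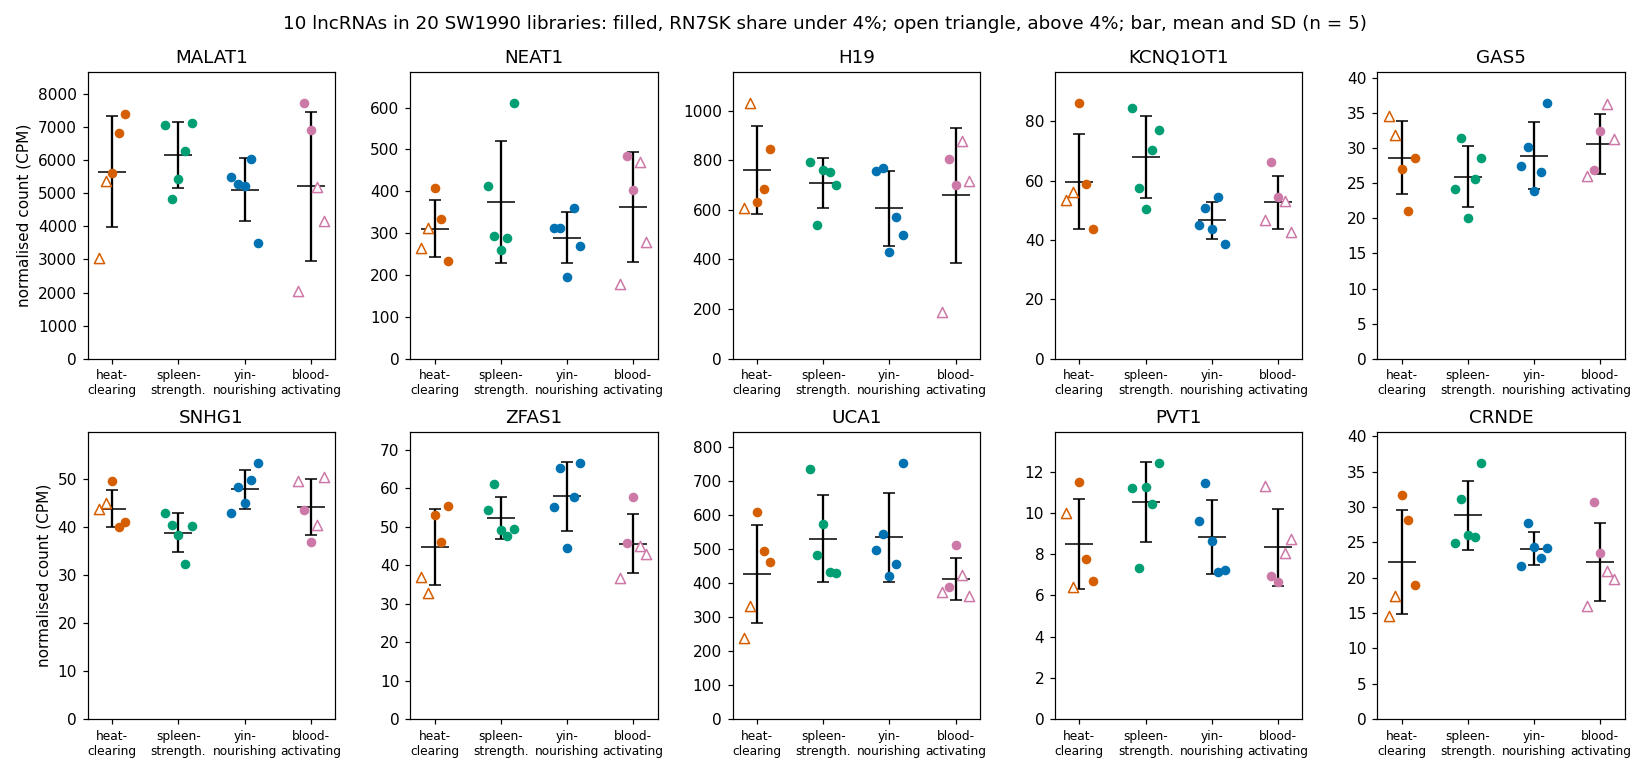
Normalised count (CPM, from 0) of the 10 lncRNAs in each library, by treatment, with the mean and SD of 5 libraries; open triangles are the 5 libraries with an RN7SK share above 4%. The groups overlap for every member except SNHG1 between spleen-strengthening and yin-nourishing, and blood-activating 01 is lowest of all 20 for MALAT1, NEAT1 and H19.

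Between treatments the fold between the highest and the lowest group mean ran from 1.18 for GAS5 to 1.46 for KCNQ1OT1. Between single libraries it ran from 1.66 for SNHG1 to 5.49 for H19. The members were higher in heat-clearing than in spleen-strengthening in 3 of 10 cases (51.8% of all rows were) with a median log2 difference of -0.21 (0.02 over all rows). They were higher in heat-clearing than in yin-nourishing in 4 of 10 (54.4%, median -0.04 against 0.05) and than in blood-activating in 5 of 10 (48.5%, median 0.01 against -0.01). Spleen-strengthening was above yin-nourishing in 6 of 10 (50.3%, median 0.24 against 0.00) and above blood-activating in 8 of 10 (47.1%, median 0.22 against -0.04). Yin-nourishing was above blood-activating in 5 of 10 (43.6%, median 0.03 against -0.09). In these pairs the groups did not overlap for 0 of 10 members, against 1.26%, 1.16%, 0.488%, 4.44% and 4.12% of all rows for heat-clearing against the other 3 and for blood-activating against the spleen-strengthening and the yin-nourishing groups, and for 1 of 10 between spleen-strengthening and yin-nourishing (0.77%). Acinar markers moved with these comparisons and were carried by single libraries. Their sum was 968 CPM in yin-nourishing 10 and at most 88.2 in the other 4 of that group, 893 in blood-activating 06 and at most 70.2 in the other 4, and 348 in heat-clearing 03 and at most 66.6 in the other 4. In spleen-strengthening it was at most 70.2. By group fit, 14 of 14 acinar markers were lower in spleen-strengthening than in yin-nourishing, blood-activating and heat-clearing, with a median log2 difference of -3.57 and -3.54 for the first 2, and 2.05 for heat-clearing minus spleen-strengthening. Heat-clearing was lower than yin-nourishing for 13 of 14 (median -1.53) and lower than blood-activating for 14 of 14 (median -1.50), and 0 of 14 passed the adjusted edgeR test among the 4 treatments, with 0 at an unadjusted p under 0.05. Their part in the members' differences was not tested.

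**Figure D2:**
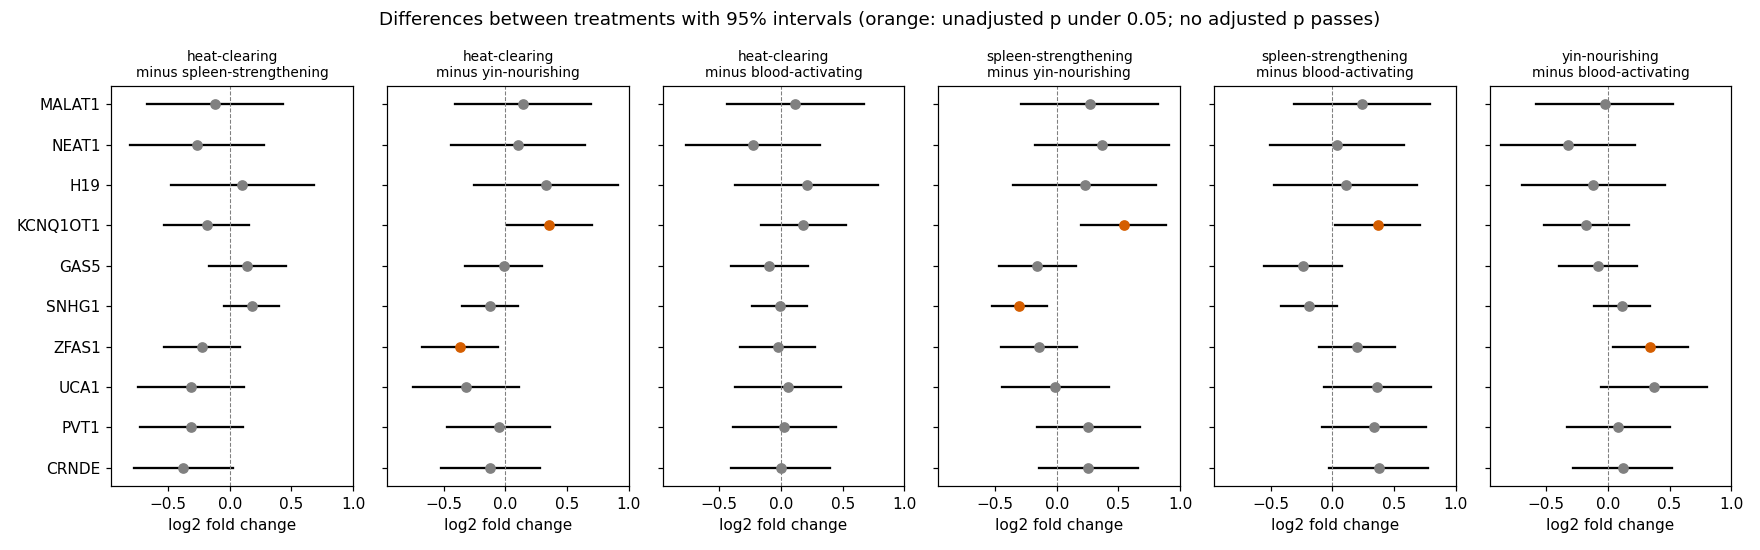
Log2 fold change (first minus second treatment) of each lncRNA in the 6 pairs, with 95% intervals from the quasi-likelihood fit; orange marks an unadjusted p under 0.05. The orange points are KCNQ1OT1 in 3 pairs, ZFAS1 in 2 and SNHG1 in 1, and none passed after adjustment over all rows.

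KCNQ1OT1 and H19 lie in the imprinted region of chromosome 11. KCNQ1OT1 (11:2608328-2699994 on hg38, minus strand, 1 annotated transcript) is read from the paternal copy, antisense through the gene KCNQ1, and silences neighbours in cis. Its levels in the spleen-strengthening libraries were 84.6, 57.4, 50.6, 70.4 and 77.1 CPM, and in the yin-nourishing libraries 45.3, 50.9, 43.9, 54.6 and 38.9. In the heat-clearing libraries they were 53.4, 56.2, 86.4, 59.0 and 43.7, and in the blood-activating libraries 46.9, 66.2, 54.6, 53.2 and 42.7. In 4 of 5 spleen-strengthening libraries the level exceeded all 5 yin-nourishing ones, and the remaining library, at 50.6, lay within their range. The mean was 68.0 ± 13.9 (SD, n = 5) against 46.7 ± 6.16, a log2 difference of 0.54 (SE 0.17, 95% interval 0.20 to 0.89, adjusted p = 0.889). This is the member's smallest p of the 6 pairs, 0.00363 before adjustment, so that p was chosen for its size. Leaving out the 5 libraries with a high RN7SK share gave 0.55, but none of them is in either group, so no compared library was removed. KCNQ1, on the other strand over the whole of KCNQ1OT1, had group means of 0.356 to 1.01 CPM. The strand setting of the counting is not stated in the sources, so reads of a gene and its antisense partner may not be separated. This also touches ZFAS1, which shares 249 bases with ZNFX1 on the opposite strand, GAS5 (801 with ZBTB37) and UCA1 (7648 with LINC01764).

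H19 (11:1995176-2001470, minus strand) is a maternally expressed RNA and the host of miR-675. In the heat-clearing libraries its levels were 607, 1032, 632, 683 and 846 CPM, and in the yin-nourishing libraries 758, 768, 432, 570 and 500. The spleen-strengthening libraries had 792, 538, 762, 752 and 700, and the blood-activating libraries 188, 805, 702, 879 and 716. Blood-activating 01 stands far below every other library. The smallest p of the 6 pairs was for heat-clearing against yin-nourishing, a log2 difference of 0.33 (SE 0.28, 95% interval -0.25 to 0.91, adjusted p = 0.744), and the groups overlap. Without heat-clearing 02, the highest library, it was 0.19, and leaving out the 5 RN7SK-high libraries it was 0.26. Its neighbour IGF2, a growth factor, had group means of 53.1 to 73.7 CPM.

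The mature sequences of miR-675, which RefSeq places inside H19 (GRCh38.p14, minus strand, found in its longest GENCODE transcript), are shown because the count table has a row for this microRNA, whose values are the same in every library. Capitals mark the seed, bases 2 to 8.
hsa-miR-675-5p (11:1996800-1996822): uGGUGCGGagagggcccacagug
hsa-miR-675-3p (11:1996768-1996787): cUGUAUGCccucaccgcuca
The row MIR675 reads exactly 1 count in 20 of 20 libraries, whatever the level of H19. In all, 91 rows hold the same count of 1 in every library, among 48067 rows with any count. Of the snoRNAs in GAS5, SNHG1 and ZFAS1, SNORD12C held 3 to 95 counts and SNORD12B 3 to 16, and the other 10 symbols found in the table held 0 to 13. None of these rows is used as a measure of the processed small RNAs.

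MALAT1 and NEAT1 are neighbours on chromosome 11. MALAT1 (11:65497688-65506516, plus strand), a nuclear speckle RNA, had 3037, 5373, 5602, 6820 and 7393 CPM in the heat-clearing libraries and 7041, 4834, 5437, 6281 and 7114 in the spleen-strengthening libraries. The yin-nourishing libraries had 5495, 5277, 5228, 6024 and 3505, and the blood-activating libraries 2057, 7731, 6907, 5171 and 4158, which hold both the lowest and the highest of all 20. Its smallest p was for spleen-strengthening against yin-nourishing, 0.27 (SE 0.27, 95% interval -0.29 to 0.82, adjusted p = 1), and the groups overlap. Without yin-nourishing 10 it was 0.16. With the 5 RN7SK-high libraries left out it was 0.27, but none of them is in either group. NEAT1 (11:65422774-65445540, plus strand) ranged from 179 in blood-activating 01 to 612 in spleen-strengthening 08. Its largest contrast by p was the same pair, 374 ± 145 against 290 ± 61.8, a log2 difference of 0.37 (SE 0.26, 95% interval -0.18 to 0.91), and this rests on spleen-strengthening 08, since without that library the difference was 0.12. Leaving out the 5 RN7SK-high libraries, none of which is in either group, it was 0.37. Among genes of paraspeckle proteins, TARDBP, which encodes an RNA-binding protein, had 225 ± 33.2 CPM in spleen-strengthening and 142 ± 31.7 in blood-activating, with an adjusted p among the 4 treatments of 0.181 from edgeR. SFPQ, a core paraspeckle protein, had 157 ± 8.47 and 128 ± 16 CPM in the same groups, with an adjusted p of 0.246.

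GAS5, SNHG1 and ZFAS1 host snoRNAs in their introns. SNHG1 (11:62851988-62855914, minus strand) was 42.8, 40.4, 38.2, 32.2 and 40.2 CPM in the spleen-strengthening libraries and 42.9, 48.2, 44.9, 49.7 and 53.3 in the yin-nourishing libraries. Every spleen-strengthening library was below every yin-nourishing one, with 42.8 against 42.9 at the nearest pair. The means were 38.8 ± 4.02 and 47.8 ± 4.09 (SD, n = 5), a log2 difference of -0.30 (SE 0.11, 95% interval -0.53 to -0.08). The edgeR test gave it an adjusted p = 0.889, and 0.011 before adjustment, again the smallest of 6 pairs. Leaving out the 5 RN7SK-high libraries, none of which is in either group, it was -0.30. The heat-clearing and blood-activating groups had 43.8 ± 3.78 and 44.1 ± 5.85, between those 2.

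ZFAS1 (20:49278178-49295738, plus strand), beside the start of ZNFX1, had 36.9, 32.7, 52.9, 45.9 and 55.3 CPM in heat-clearing and 55.04, 65.3, 44.6, 57.7 and 66.5 in yin-nourishing libraries. The spleen-strengthening libraries had 54.4, 60.9, 49.2, 47.6 and 49.3, and the blood-activating libraries 36.8, 45.6, 57.7, 45.01 and 42.8. The groups overlap, and the 2 lowest values of all are heat-clearing 02 and blood-activating 01. Heat-clearing was below yin-nourishing by -0.37 on the log2 scale (SE 0.15, 95% interval -0.68 to -0.06, adjusted p = 0.46), and by -0.17 when the 5 RN7SK-high libraries were left out. GAS5 (1:173863900-173868882, minus strand), which rises in growth-arrested cells, varied little, from 19.98 to 36.5 CPM. Its smallest p was for spleen-strengthening against blood-activating at -0.24 (SE 0.15, adjusted p = 0.414). This was -0.18 when the 5 RN7SK-high libraries were left out, with 2 blood-activating libraries remaining. Of 19 tested other snoRNA hosts 0 passed the adjusted edgeR test in any comparison, and 4 had an unadjusted p under 0.05 among the 4 treatments, led by SNHG8, SNHG17 and SNHG32. Of all rows 15.4% had such a p. Among the 4 treatments DESeq2 called 1 and limma 1 of the 19, against 5.08% and 8.47% of all rows. DESeq2 called 2 between yin-nourishing and blood-activating (4.26% of all rows) and 0 in the other pairs, and limma called 3 there (16.8%) and 5 between spleen-strengthening and blood-activating (19.8%). SNHG8 had 36.4 ± 3.85 CPM in yin-nourishing and 23.7 ± 7.33 in heat-clearing, with an adjusted p of 0.188 among the 4 treatments.

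UCA1, PVT1 and CRNDE are studied for their high levels in tumours. UCA1 (19:15828206-15836326, plus strand), described first in bladder cancer, ranged from 238 in heat-clearing 01 to 754 in yin-nourishing 10. Its means were 535 ± 131 CPM in yin-nourishing and 412 ± 60.8 in blood-activating, a log2 difference of 0.38 (SE 0.21, 95% interval -0.06 to 0.81, adjusted p = 0.358). Without yin-nourishing 10 it was 0.22, and leaving out the 5 RN7SK-high libraries it was 0.25, with 2 blood-activating libraries left. Within heat-clearing, UCA1 was 238 to 333 CPM in the 2 RN7SK-high libraries and 462 to 610 in the other 3. PVT1, the neighbour of the oncogene MYC, was the lowest of the 10 at 6.43 to 12.4 CPM, with 10.5 ± 1.93 in spleen-strengthening and 8.34 ± 1.86 in blood-activating, a difference of 0.34 (SE 0.20, adjusted p = 0.372). With the 5 RN7SK-high libraries left out that difference was 0.64, which rests on the 2 remaining blood-activating libraries, at 6.63 and 6.96 CPM. MYC itself had group means of 36.4 to 46.6 CPM.

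CRNDE (16:54845189-54929189, minus strand), raised in colorectal cancer, had 14.6, 17.4, 31.7, 28.2 and 18.9 CPM in heat-clearing and 24.9, 31.2, 26.0, 25.7 and 36.2 in spleen-strengthening libraries. The 2 lowest heat-clearing values are the 2 libraries with a high RN7SK share. The difference was -0.38 (SE 0.19, 95% interval -0.78 to 0.02, adjusted p = 0.466), and -0.13 without the 5 libraries. Of 46 tested other cancer lncRNAs 0 passed the adjusted edgeR test in any comparison, and 5 had an unadjusted p under 0.05 among the 4 treatments, led by MIR22HG, TUG1 and NORAD. Among the 4 treatments DESeq2 called 2 and limma 3 of the 46, against 5.08% and 8.47% of all rows, and 15.4% of all rows had an unadjusted p under 0.05. Between spleen-strengthening and blood-activating DESeq2 called 4 (7.8% of all rows) and limma 6 (19.8%), and between yin-nourishing and blood-activating limma called 5 (16.8%). The edgeR count between spleen-strengthening and blood-activating was 4 when blood-activating 04 was left out. The share of all rows called in that fit is not given, so this count is not read as a result about these lncRNAs. TUG1 had 763 ± 73.2 CPM in spleen-strengthening and 548 ± 108 in blood-activating, with an adjusted p of 0.193 among the 4 treatments. Among genes that neighbour the members, FRMD8, on chromosome 11 near MALAT1, had 20.4 ± 3.33 CPM in blood-activating and 11.7 ± 1.75 in spleen-strengthening, with an adjusted p of 0.191 among the 4 treatments. SLC22A18, in the imprinted region, had 2.98 ± 0.785 and 1.84 ± 0.499 CPM in the same groups, with an adjusted p of 0.292.

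The libraries with a high RN7SK share differed from the others of their own treatment in 3 of 10 members in both groups. MALAT1, ZFAS1 and CRNDE were wholly lower in them, against 10% of all rows, and 0 of 10 were wholly higher, against 12.3%. MALAT1 was 3037 to 5373 CPM in the 2 such heat-clearing libraries and 5602 to 7393 in the other 3, and 2057 to 5171 in the 3 such blood-activating libraries against 6907 to 7731. The log2 ratio of means was -0.72 and -0.52 for CRNDE and -0.56 and -0.32 for ZFAS1. These libraries fall in 2 of the 4 groups, and the part of the RN7SK share in the differences with those groups was not tested.

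**Figure D3:**
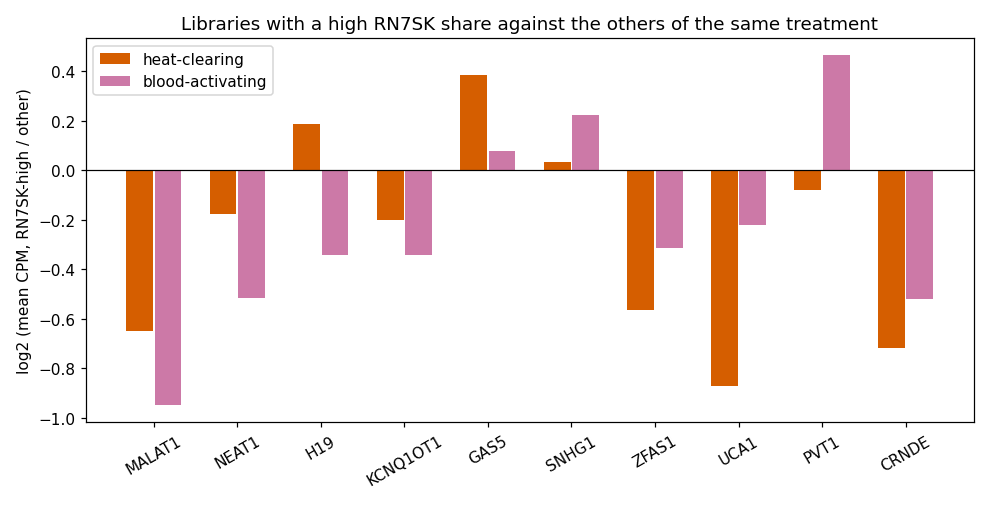
Log2 ratio of mean CPM in libraries with an RN7SK share above 4% to the mean of the other libraries of the same treatment, for heat-clearing (2 against 3) and blood-activating (3 against 2). MALAT1, ZFAS1 and CRNDE are below 0 in both with no overlap of libraries, while NEAT1, KCNQ1OT1 and UCA1 are below 0 in both with overlap in at least 1 of the treatments.

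Members were also compared with one another over the 15 libraries with a low RN7SK share, leaving out the other 5, which stood apart by that share. This choice was made after seeing the data. Of 45 pairs 2 passed after adjustment over the 45 (permutation test, 100000 permutations, two-sided). GAS5 and ZFAS1 varied together, with Pearson r 0.74 (adjusted p = 0.045, permutation) and Spearman rho 0.80 (adjusted p = 0.0256, permutation). NEAT1 and KCNQ1OT1 did so with r 0.72 (adjusted p = 0.045, permutation) and rho 0.76 (adjusted p = 0.0284, permutation). Without the 2 libraries farthest from the median of GAS5, r of the first pair was 0.70. Without the 2 farthest from the median of NEAT1, r of the second pair was 0.67. Libraries far out in ZFAS1 or KCNQ1OT1 were not sought. With each treatment's mean taken off r was 0.77 and 0.75. Both values of a point come from the same library and share its depth and scaling. These correlations describe the 15 libraries only, and those over all 20 are not given. Within heat-clearing, GAS5 was 31.9 to 34.6 CPM in the 2 RN7SK-high libraries and 21.0 to 28.5 in the other 3. ZFAS1 went the other way there, at 32.7 to 36.9 against 45.9 to 55.3. Within blood-activating, GAS5 overlapped and ZFAS1 was again lower in the RN7SK-high libraries.

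**Figure D4:**
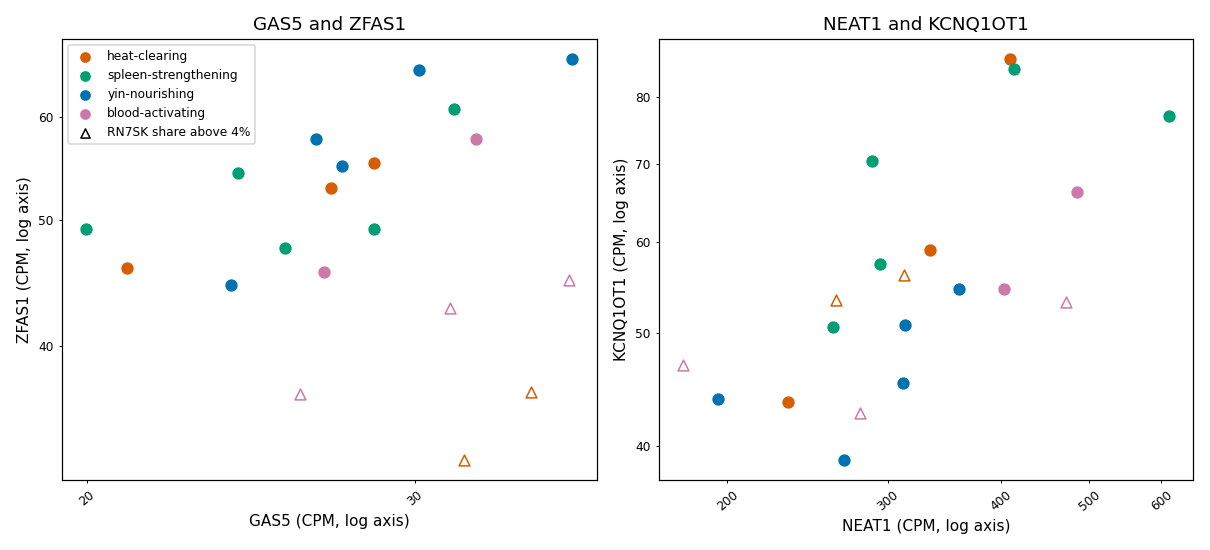
CPM of GAS5 against ZFAS1 and of NEAT1 against KCNQ1OT1 on log axes, 1 point per library, coloured by treatment; open triangles are the 5 libraries with an RN7SK share above 4%, which r leaves out. Filled points rise together in both panels, with r 0.74 and 0.72, and the triangles lie low in ZFAS1.

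The 3 genes most alike each member by Spearman rho over the 20 libraries are a description, with no test. For ZFAS1 they were NOP53 (rho 0.965), RPS3 (0.941) and SPTSSA (0.938), of which NOP53 acts in ribosome assembly and RPS3 is a ribosomal protein. For GAS5 they were JUNB (0.928), ALOX15B (0.862) and TIMP3 (0.842), and for UCA1 ZDHHC17 (0.928), ING1 (0.926) and LMBR1 (0.925). For KCNQ1OT1 they were AUXG01000058.1 (0.895), TMEM161B-AS1 (0.838) and AL121839.2 (0.832). The highest was CRNDE with AP3M2 at 0.884, MALAT1 with ZFP3 at 0.883, SNHG1 with UTP14A at 0.841, H19 with SH3YL1 at 0.814, NEAT1 with UBN2 at 0.809 and PVT1 with CCDC144CP at 0.756.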

How the data were processed

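Per the labels' protocols, libraries were made with a strand-keeping kit from TRIzol RNA depleted of ribosomal RNA. The deposited table holds whole-number counts per gene that the authors had not normalised, made with HISAT2, StringTie and build hg38, per the submitters' processing notes. No source used here states the annotation, the strand setting or a removal of mouse reads. Counts were tested with edgeR 4.0.16 (R 4.3.3; TMM, robust quasi-likelihood, filterByExpr with a minimum count of 10, all 20 libraries in 1 fit), with Benjamini-Hochberg adjustment over 24790 rows and a threshold of 0.05. DESeq2 1.42.0 and limma 3.58.1 were alternatives. The test was checked on simulated data: of genes given a log2 change of 1, 57% were recovered in the 4-treatment test, and 87% at a log2 change of 2. The changed genes were well counted and were shifted in blood-activating only. Libraries were drawn independently around a common mean share for each gene. Positions, lengths and overlaps are from GENCODE 29 (54986 of 59609 distinct symbols matched), and miRNA sequences from RefSeq.

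The members, gene lists, naming rule (for each member the pair with the smallest p; for each other list the 3 smallest p among the 4 treatments; the 3 most alike genes) and RN7SK cut of 4% were chosen with earlier results of these data known. IGF2, KCNQ1, MYC and ZNFX1 are named as neighbours outside that rule, after their values were seen. The correlations over 15 libraries and the ribosomal protein comparison were added after seeing the data. A search for a pyrimidine tract at the starts of GAS5, SNHG1 and ZFAS1 was tried under 3 definitions of the start; which of them held one changed with the definition, and nothing from it is reported. Some genes of the paraspeckle and neighbour lists, and the counts over these lists, are not reported here.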

Additional observations from a re-analysis of the deposited data

Results flagged for a closer look

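H19 in blood-activating 01 was 188 CPM, far below the other 4 libraries of its treatment (702 to 879), with a gap of 0.743 of the group's range. Without it the group was 775 ± 83.0 CPM (SD, n = 4) in place of 658 ± 272 (n = 5). The same library is also the lowest of 20 for MALAT1 and NEAT1, and has the highest RN7SK share (7.38%); the part of this in its H19 level was not tested. In all, 40 sets of 5 libraries (10 members in 4 treatments) were checked, and chance flags about 1 in 20.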

How the results depend on the processing

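Members called were counted once per comparison in each alternative fit, and 214 of these 216 counts stayed at 0. Several counts come from the same fit, so they are not 216 separate checks. The exceptions are limma voom with sample quality weights, with 2 members between spleen-strengthening and blood-activating (KCNQ1OT1 0.48, adjusted p = 0.0253, and CRNDE 0.50, adjusted p = 0.0369) and 1 between yin-nourishing and blood-activating (ZFAS1 0.38, adjusted p = 0.0475). That tool called 4910 and 4172 of 24790 rows there, and the cause was not tested. Leaving out each library in turn gave 0 members in every comparison, the lowest and highest count both being 0. Of the members' 310 fold changes under alternatives 309 kept their sign. These include 20 leave-one-out fits per member, some of which drop a library outside the pair, where the sign could hardly change. Each pair was also chosen for its smallest p, so the 309 is a weak check. MALAT1 between spleen-strengthening and yin-nourishing was -0.12 with the title number as a replicate block, and the cause was not tested. The sources do not say whether the title numbers pair the libraries. The 12 same-number pairs had r of -0.045 to 0.17, 1 over 0.1, after each treatment's mean was taken off. Pairs with different numbers were not set beside them, so these values cannot show whether the libraries are paired. With the replicate block 0 members were called in all 7 comparisons.

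At this depth and with 5 libraries a group, a log2 change of 1 was recovered for 57% of the changed genes in the 4-treatment test on simulated data. Smaller changes were not simulated. These genes were well counted and shifted in blood-activating only, and no shift shared by libraries, such as the RN7SK-high ones, was simulated. The 57% therefore does not give the recovery in the real data. The intervals of the members give the differences these data allow.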

Other observations

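Each member was also set beside 82 ribosomal protein genes, a comparison added after RPS3 and NOP53 were seen among the genes most alike ZFAS1, so it is a description with no test. Over the 15 libraries with a low RN7SK share the median rho with these genes was 0.60 for GAS5 and 0.58 for ZFAS1, 0.16 for SNHG1 and -0.52 for KCNQ1OT1. Over all 20 libraries GAS5 stayed at 0.47, while ZFAS1 was at -0.17, a change of sign, SNHG1 at 0.20 and KCNQ1OT1 at -0.42. Of the other members, UCA1 also changed sign, from 0.17 over 15 to -0.28 over 20. CRNDE was at -0.40 and -0.56, MALAT1 at -0.36 and -0.44, NEAT1 at -0.38 and -0.30, PVT1 at -0.26 and -0.11 and H19 at -0.06 and -0.04. The median over all 14127 genes compared was between -0.06 and 0.01 for each member. The genes most alike also depend on these libraries: over 15, MALAT1 was led by CRACR2B (rho 0.868, and 0.426 over 20), while ZFAS1 still had NOP53 and RPS3 first (0.939 and 0.907).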
